A study of Homo sapiens with 4 samples.

Results

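The cell keeps its chromosomes intact with several repair pathways, and 33 genes of the pathways for double-strand breaks, mismatches and single-strand breaks were followed here. They were taken by symbol from a table of 59409 gene symbols measured in 786-O cells. These cells are an established renal carcinoma line of clear cell type without working VHL, the factor that targets HIF proteins for degradation. All 33 were found, and 32 had at least 1 TPM (transcripts per 1000000 transcripts) in at least 2 of the 4 libraries and could be tested. BRCA2 did not reach that level. The comparison was between 2 control libraries, labelled negative control with the genotype WT, and 2 libraries labelled DEK KO. DEK binds chromatin, can act as a histone chaperone, and has been linked to the repair of broken DNA. Both groups were polyadenylated RNA of the same line, and the control columns carry the name Cas9. Knockout cells came from a clone expressing Cas9 that was infected with a lentivirus carrying guides against DEK and then sorted as single cells. No label ties a knockout library to a clone or says that the libraries of a group were separate cultures, so the p-values measure only the spread between these libraries.

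A double-strand break is first bound by the complex of MRE11, RAD50 and NBN, which trims the ends and activates the kinase ATM. Non-homologous end joining ligates the ends directly through the Ku dimer of XRCC5 and XRCC6, the kinase subunit PRKDC and the ligase LIG4 with XRCC4 and NHEJ1. Homologous recombination copies an intact sister sequence in S and G2 phase and depends on BRCA1, BARD1, PALB2 and BRCA2. The Fanconi anaemia pathway unhooks DNA crosslinks, and mismatch repair removes errors left by replication. Many genes of recombination, crosslink repair and mismatch repair are transcribed mostly in dividing cells.

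DEK itself measured 95.02 and 76.3 TPM in the control libraries and 31.4 and 15.7 TPM in the knockout libraries, or -1.89 on the log2 scale (SE 0.33, adjusted p = 0.030 by limma). Without control 1 or control 2 it did not pass (adjusted p = 0.22 and 0.19). The mRNA was lower in both knockouts but was still detected, and it does not report on the protein. Depth, estimated from the steps of low TPM values, came to between 35.5 and 39.7 Mreads per library (1 Mread is 1000000 reads). The markers of the line were mixed. PAX8, EPAS1, VIM and CDH2 were at 66.9 TPM or more in each library, while CA9, LRP2, CUBN and AQP1 stayed under 1 TPM. PAX2 fell from 23.5 ± 1.89 to 10.7 ± 2.46 TPM (SD, n = 2; limma adjusted p = 0.027). Of 16 markers of other cell types 13 were under 1 TPM in every library, and their sum was 3.31 to 4.66 TPM in the controls and 7.03 to 9.71 TPM in the knockouts. Most of that difference was in SNAP25 (0.710 ± 0.424 against 4.27 ± 2.39 TPM, SD, n = 2, limma adjusted p = 0.056) and PMEL (1.79 ± 0.113 against 3.02 ± 0.607 TPM, limma adjusted p = 0.12), which were singled out after their values were seen.

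Most of the repair genes were lower in the knockouts by a small amount, and 4 of them passed the test. NBN, XRCC5, PRKDC and PARP1 fell, and 0 rose (limma, Benjamini-Hochberg adjusted p under 0.05 over 15815 genes). The 4 are 12.5% of the members tested, beside 8.67% of all genes tested that fell and 9.06% that rose. At an unadjusted p under 0.05, 9 members were lower, where 21.4% of all genes were, and 1, XRCC3, was higher, where 16.9% of all genes were. In 24 of the 32 the log2 fold change was below 0, as in 55.6% of all genes. In 22 of the 32 both knockouts lay below both controls, or 68.8%, where 39.0% of all genes tested did so. In 3 both knockouts lay above both controls, where 29.2% of all genes did so, and in 7 the groups overlapped. The median log2 fold change of log2(TPM + 1), knockout minus control, was -0.25 for the members and -0.06 for all genes tested. In a bulk library, less RNA per cell and fewer cells that express a gene cannot be told apart.

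The calls depended on having both controls, while the log2 fold changes of NBN, XRCC5, PRKDC and PARP1 stayed below 0 without either. With a control left out, the remaining one has no replicate and is assumed to vary like the knockouts. The correlation between the knockouts was 0.980, beside 0.989 between the controls. The part of this spread in the lost calls was not tested. With either control left out, 0 members and 0 of 15815 genes passed (limma), while 4 and 3 members were lower at an unadjusted p under 0.05. With a knockout left out, the remaining one has no replicate and is assumed to vary like the controls. Then 10 members were lower without knockout 1, where 18.0% of all genes were, and 3 without knockout 2, where 8.40% of all genes were. Removal of the relation between library values and the GC content of transcripts moved the median of the members more than any other alternative. After it, NBN was the only member called lower, where 7.44% of all genes were, XRCC2 was called higher, where 9.06% were, and the median of the members was -0.0039 beside 0.00087 for all genes. The log2 fold change of PARP1 was then -0.70 beside -0.68 before, that of XRCC5 -0.37 beside -0.48, and that of PRKDC -0.27 beside -0.36.

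**Figure D1:**
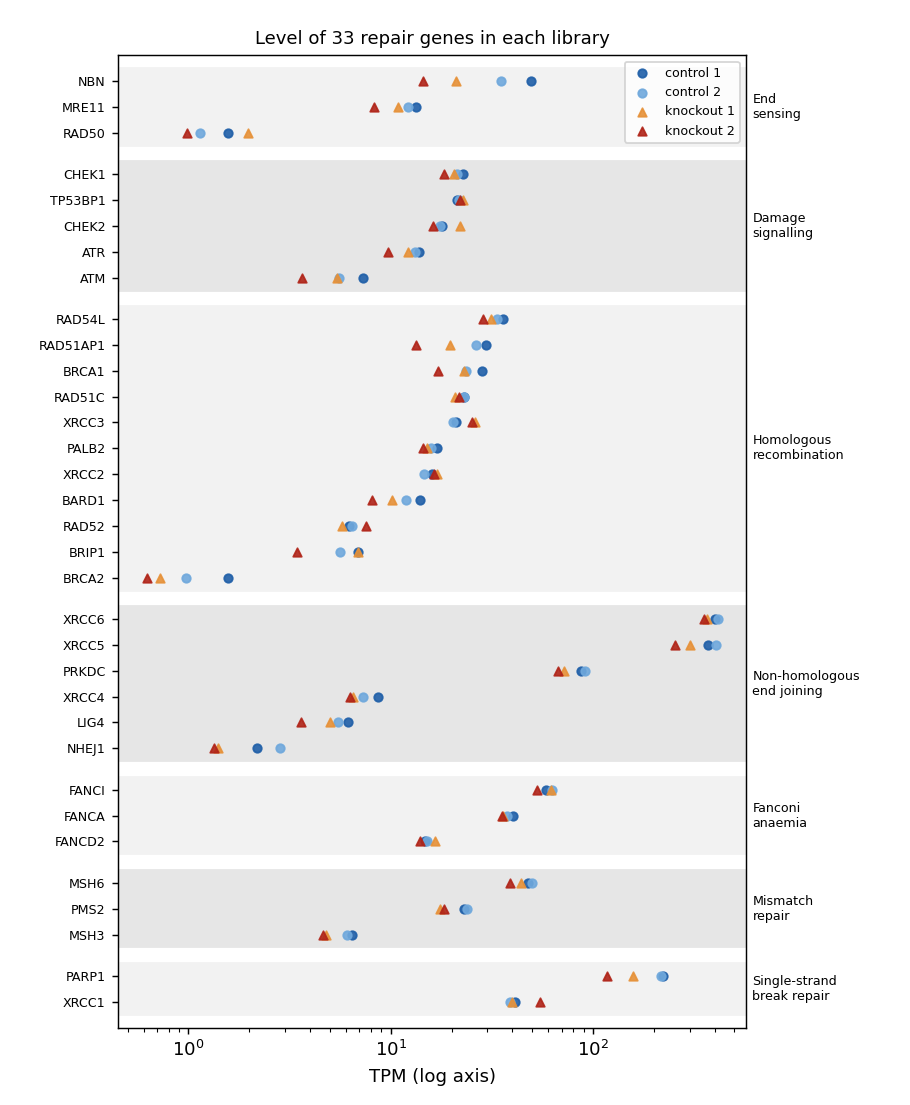
TPM of each of the 33 genes on a log axis, with 1 point per library, grouped by pathway and ordered within it by the control mean. Circles are the 2 controls and triangles the 2 knockouts. The Ku genes and PARP1 are the most abundant, BRCA2, RAD50 and NHEJ1 the least, and for NBN, XRCC5, PRKDC and PARP1 the triangles lie to the left of the circles.

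Among the genes that sense broken ends, NBN had the largest difference of all members. NBN, the subunit that recruits ATM to breaks, is encoded on the minus strand of chromosome 8 (89933336 to 90003228, GRCh38). It had control values of 49.3 and 35.3 TPM and knockout values of 21.0 and 14.4 TPM, so that both knockouts were well below both controls. Mean TPM fell 2.39-fold, 42.3 ± 9.92 to 17.7 ± 4.70 (SD, n = 2), or -1.22 on the log2 scale (SE 0.24; limma, adjusted p = 0.037). The log2 fold change remained negative under all 16 alternatives, between -1.47 and -0.85, and passed the threshold in 11 of them, including the removal of the GC trend (-0.85, adjusted p = 0.036). It did not pass without control 1 (-0.98, adjusted p = 0.24), control 2 (-1.45, adjusted p = 0.18) or knockout 2 (-0.96, adjusted p = 0.063), or, at an unchanged -1.22, with no filter (adjusted p = 0.11) or no variance trend (adjusted p = 0.065).

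MRE11, the nuclease of the same complex, read 13.4 and 12.1 TPM in control cells against 10.8 and 8.31 TPM in knockout cells. The groups did not overlap, but the difference did not pass the test (log2 fold change -0.39, SE 0.16, adjusted p = 0.15). RAD50, the ATPase that tethers the ends, measured 1.57 and 1.14 TPM in the control libraries and 1.98 and 0.986 TPM in the knockout libraries, which lay on either side of the controls. Of the exon bases of RAD50, 79.7% are shared with AC116366.3, a gene annotated on the same strand, so reads from this locus may not have been assigned to RAD50 and its level is uncertain. The ratio of NBN to MRE11 within a library came to 3.68 and 2.91 (controls) against 1.94 and 1.73 (knockouts). NBN transcripts were thus the more abundant in each library, by a smaller margin in both knockouts.

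None of the 5 damage signalling genes passed the test, where 8.67% of all genes fell and 9.06% rose. At an unadjusted p under 0.05 (limma) 0 were called, where 21.4% of all genes were lower and 16.9% higher. ATM, the kinase activated by double-strand breaks, had control values of 7.32 and 5.55 TPM and knockout values of 5.44 and 3.66 TPM (log2 fold change -0.43, SE 0.23, adjusted p = 0.23). Knockout 1 lay just below control 2, so the groups are barely apart. ATR, the kinase that answers stalled replication forks, read 13.8 and 13.2 TPM in control cells against 12.2 and 9.66 TPM in knockout cells. Its effector kinase CHEK1 measured 22.9 and 21.2 TPM in the control libraries and 20.6 and 18.4 TPM in the knockout libraries. CHEK2, the effector kinase downstream of ATM, had control values of 17.9 and 17.6 TPM and knockout values of 21.9 and 16.2 TPM. Its knockout values lay on either side of the controls. The log2 fold change of CHEK2, on chromosome 22, was 0.086, and -0.14 with each library centred on its chromosome medians. TP53BP1, which shields ends from resection and favours end joining, differed least, with 21.3 and 21.7 TPM in control cells against 22.8 and 22.1 TPM in knockout cells. Of its exon bases 28.7% are shared with TUBGCP4 on the opposite strand, at 18.6 and 19.0 TPM (controls) against 15.7 and 16.2 TPM (knockouts). For ATR 16.4% are shared with a processed pseudogene on the opposite strand. The part of these overlaps was not tested.

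The 11 recombination genes ranged widely in level, and none passed the test in the 10 that could be tested. At an unadjusted p under 0.05 (limma) 2 were lower and 1 higher, where 21.4% and 16.9% of all genes were. RAD51AP1, which stimulates strand invasion, came nearest among them to the threshold. It read 29.6 and 26.4 TPM in control cells against 19.6 and 13.3 TPM in knockout cells (log2 fold change -0.76, SE 0.20, adjusted p = 0.062). Both knockouts were below both controls, by unequal amounts. BARD1, the obligate partner of BRCA1, measured 14.0 and 11.9 TPM in the control libraries and 10.1 and 8.13 TPM in the knockout libraries (log2 fold change -0.47, SE 0.16, adjusted p = 0.10). BRCA1, a ubiquitin ligase subunit that promotes resection and recombination, had control values of 28.2 and 23.6 TPM and knockout values of 23.03 and 17.2 TPM (log2 fold change -0.36, SE 0.18, adjusted p = 0.20). Its groups are separated by less than the distance between the controls. The ratio of BARD1 to BRCA1 came to 0.499 and 0.505 (controls) against 0.439 and 0.474 (knockouts).

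XRCC3 was the only recombination gene with a higher level at an unadjusted p under 0.05. XRCC3, a paralogue in the complex that also holds RAD51C, read 20.96 and 20.4 TPM in control cells against 26.1 and 25.3 TPM in knockout cells (log2 fold change 0.30, SE 0.09, adjusted p = 0.079). Its exons share 76.7% of their bases with KLC1 on the opposite strand, and the use of strand in counting is not given in the sources used here. KLC1 measured 3.80 and 3.497 TPM in the control libraries and 4.28 and 4.38 TPM in the knockout libraries. RAD51C had control values of 23.01 and 22.99 TPM and knockout values of 20.7 and 21.8 TPM, which is a narrow difference in the opposite direction (log2 fold change -0.11, SE 0.09). XRCC2, another paralogue, read 15.9 and 14.6 TPM in control cells against 17.03 and 16.3 TPM in knockout cells. It was called higher after the removal of the GC trend (log2 fold change 0.40, adjusted p = 0.047) and in no other alternative.

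The other recombination genes showed small or uneven differences. BRCA2, which loads the strand-exchange protein, was the least abundant member, with 1.56 and 0.976 TPM in control cells against 0.727 and 0.623 TPM in knockout cells. It was fitted only with no filter on low values, where the log2 fold change was -0.43 (adjusted p = 0.35). Its partner PALB2 measured 16.8 and 15.9 TPM in the control libraries and 15.2 and 14.5 TPM in the knockout libraries. PALB2 exceeded BRCA2 in each library, by a ratio of 10.8 and 16.3 (controls) against 20.9 and 23.2 (knockouts). BRIP1, a helicase that binds BRCA1, had control values of 6.88 and 5.64 TPM and knockout values of 6.91 and 3.43 TPM. RAD52, an annealing protein, read 6.23 and 6.44 TPM in control cells against 5.78 and 7.59 TPM in knockout cells. For both genes the 2 knockouts lay on either side of the controls. RAD54L, a motor protein of strand exchange, measured 35.8 and 33.4 TPM in the control libraries and 31.3 and 28.5 TPM in the knockout libraries (log2 fold change -0.20, SE 0.10, adjusted p = 0.19). Of its exon bases 25.1% are shared with LRRC41 on the opposite strand, which is the more abundant and fell from 106 ± 0.130 to 66.3 ± 12.6 TPM (SD, n = 2; limma adjusted p = 0.040). The median of the genes on chromosome 1, which holds RAD54L, was at -0.18. With each library centred on its chromosome medians the log2 fold change of RAD54L was -0.026. The parts of LRRC41 and of the chromosome in the value of RAD54L were not tested.

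All 6 end joining genes had both knockouts below both controls, where 39.0% of all genes tested did so. Of them 2 passed the test as lower, where 8.67% of all genes did. At an unadjusted p under 0.05 (limma) 4 were lower, where 21.4% of all genes were. The median log2 fold change of the 6 was -0.37, and after the removal of the GC trend it was -0.24 with 4 of the 6 below 0. XRCC5, the larger Ku subunit, is encoded on the plus strand of chromosome 2 (216107464 to 216206303, GRCh38). It had control values of 371 and 404 TPM and knockout values of 301 and 255 TPM, a clear separation. Mean TPM fell 1.39-fold, 387 ± 23.5 to 278 ± 32.5 (SD, n = 2), or -0.48 on the log2 scale (SE 0.10; limma, adjusted p = 0.042). PRKDC, the catalytic subunit that Ku brings to the ends, is encoded on the minus strand of chromosome 8 (47773108 to 47960183, GRCh38). It read 87.3 and 91.2 TPM in control cells against 71.9 and 67.2 TPM in knockout cells, with replicates close together in both groups. Mean TPM fell 1.28-fold, 89.3 ± 2.76 to 69.5 ± 3.34 (SD, n = 2), or -0.36 on the log2 scale (SE 0.08; limma, adjusted p = 0.042).

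Both calls depended on the setting. XRCC5 passed in 9 of 16 alternatives (adjusted p 0.011 to 0.25) and PRKDC in 8 of 16 (0.018 to 0.28), and both were negative in all of them. With the GC trend removed their adjusted p was 0.070 and 0.065, and with median-ratio scaling 0.067 and 0.070. With each library centred on its chromosome medians their limma adjusted p was 0.053 and 0.074. Without control 1 or control 2 the adjusted p was 0.24 and 0.25 for XRCC5, and 0.28 in both cases for PRKDC, whose adjusted p was 0.065 with the replicate number as a block. XRCC6, the smaller Ku subunit, measured 401 and 413 TPM in the control libraries and 365 and 354 TPM in the knockout libraries (log2 fold change -0.18, SE 0.06, adjusted p = 0.096). The ratio of XRCC5 to XRCC6 came to 0.924 and 0.977 (controls) against 0.823 and 0.720 (knockouts), so it was lower in both knockouts. The median of the genes on chromosome 22, which holds XRCC6, was at 0.22, and that of chromosome 2, which holds XRCC5, at -0.11. With each library centred on its chromosome medians XRCC5 was at -0.37 and XRCC6 at -0.40, where XRCC6 was called lower (limma adjusted p = 0.027). The part of the chromosomes in the ratio was not tested.

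The ligation factors were far less abundant than Ku. LIG4, the ligase, had control values of 6.13 and 5.52 TPM and knockout values of 4.99 and 3.59 TPM (log2 fold change -0.38, SE 0.19, adjusted p = 0.21). Its scaffold XRCC4 read 8.62 and 7.27 TPM in control cells against 6.54 and 6.32 TPM in knockout cells (log2 fold change -0.26, SE 0.14, adjusted p = 0.24). After the removal of the GC trend these values were 0.017 and 0.12, so the direction of both turned. NHEJ1, which aligns the ends with XRCC4, measured 2.19 and 2.83 TPM in the control libraries and 1.40 and 1.34 TPM in the knockout libraries (log2 fold change -0.56, SE 0.19, adjusted p = 0.10). With the GC trend removed it was -0.56 as well. Of its exon bases 65.4% are shared with AC068946.1, annotated on the same strand and at 0 to 0.104 TPM, so the level of NHEJ1 is uncertain.

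The 3 Fanconi anaemia genes were close to their control levels. FANCA, of the core complex, had control values of 40.2 and 37.6 TPM and knockout values of 35.9 and 35.5 TPM (log2 fold change -0.12, SE 0.08, limma adjusted p = 0.34). Of its exon bases 23.6% are shared with ZNF276 on the opposite strand, at 16.7 and 17.1 TPM (controls) against 16.7 and 18.2 TPM (knockouts). FANCI read 58.6 and 62.5 TPM in control cells against 61.9 and 52.8 TPM in knockout cells. FANCD2, which is ubiquitinated together with FANCI at crosslinks, measured 14.8 and 15.1 TPM in the control libraries and 16.6 and 13.9 TPM in the knockout libraries. The knockouts of FANCD2 lay on either side of the controls, and those of FANCI overlapped with them.

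All 3 mismatch repair genes were lower in both knockouts, where 39.0% of all genes tested had both knockouts below both controls. None passed the test, where 8.67% of all genes fell. At an unadjusted p under 0.05 (limma) 1 was lower, where 21.4% of all genes were. PMS2, the endonuclease subunit, had control values of 22.9 and 23.8 TPM and knockout values of 17.6 and 18.4 TPM (log2 fold change -0.36, SE 0.09, adjusted p = 0.061). The replicates of PMS2 were close in both groups. The gene has many pseudogenes on chromosome 7, so its reads may be divided among copies, and the pseudogene PMS2CL read 9.09 and 8.91 TPM in control cells against 7.94 and 10.1 TPM in knockout cells. The pseudogenes PMS2P1 and PMS2P3 were higher in both knockouts, opposite to PMS2, without passing the test. PMS2P1 had control values of 20.1 and 21.3 TPM and knockout values of 22.8 and 31.7 TPM (adjusted p = 0.19), and PMS2P3 had 11.8 and 10.8 TPM and then 12.8 and 18.8 TPM (adjusted p = 0.19). Their part in the value of PMS2 was not tested. MSH3, the subunit that recognises larger loops, measured 6.40 and 6.09 TPM in the control libraries and 4.804 and 4.64 TPM in the knockout libraries (log2 fold change -0.34, SE 0.13, adjusted p = 0.14). MSH6, which recognises single mismatches, had control values of 47.5 and 49.995 TPM and knockout values of 43.8 and 38.7 TPM (log2 fold change -0.24, SE 0.10, limma adjusted p = 0.14). Of its exon bases 16.2% are shared with FBXO11 on the opposite strand, which measured 37.1 ± 3.67 and then 27.0 ± 2.79 TPM (SD, n = 2; limma adjusted p = 0.067). The part of FBXO11 in the value of MSH6 was not tested. The ratio of MSH3 to MSH6 came to 0.135 and 0.122 (controls) against 0.110 and 0.120 (knockouts), so the loop-binding subunit was the rarer of the alternatives in each library. After the removal of the GC trend the log2 fold changes of PMS2, MSH3 and MSH6 were -0.30, -0.15 and 0.0060.

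The 2 single-strand break genes went in different directions. PARP1, which detects nicks and marks them with ADP-ribose chains, is encoded on the minus strand of chromosome 1 (226360691 to 226408079, GRCh38). It read 221 and 216 TPM in control cells against 157 and 117 TPM in knockout cells. The controls were nearly equal, while the knockouts were apart and both below them. Mean TPM fell 1.59-fold, 218 ± 3.74 to 137 ± 28.6 (SD, n = 2), or -0.68 on the log2 scale (SE 0.15; limma, adjusted p = 0.044). The median of the genes on chromosome 1 was itself at -0.18, and with each library centred on its chromosome medians PARP1 was at -0.51 (adjusted p = 0.038). It passed in 9 of 15 alternatives and missed with the GC trend removed (-0.70, adjusted p = 0.051), with median-ratio scaling (-0.62, adjusted p = 0.058), and, at an unchanged -0.68, with no filter (adjusted p = 0.12) or no variance trend (adjusted p = 0.082). It also missed without control 1 (-0.67, adjusted p = 0.27) or control 2 (-0.70, adjusted p = 0.23).

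XRCC1, the scaffold that PARP1 recruits, measured 41.04 and 38.8 TPM in the control libraries and 39.6 and 54.6 TPM in the knockout libraries (log2 fold change 0.22, SE 0.17, adjusted p = 0.39). Knockout 1 lay within the control range and knockout 2 above it. Of the exon bases of XRCC1, 24.0% are shared with other annotated genes on either strand, and their part in its value was not tested. The promoter of PARP1 is given here because the gene fell. It spans 250 bases before the RefSeq start (GRCh38.p14), chr1:226408094-226408343 on the minus strand, and has a GC content of 70.4%.
PARP1: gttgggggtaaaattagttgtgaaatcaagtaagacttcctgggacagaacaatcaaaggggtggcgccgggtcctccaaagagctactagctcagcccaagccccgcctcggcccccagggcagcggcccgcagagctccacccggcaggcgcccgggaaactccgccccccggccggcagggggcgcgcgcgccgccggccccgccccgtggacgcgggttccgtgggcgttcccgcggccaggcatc
No capitals appear because none of the letters searched below were found in it on either strand.

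**Figure D2:**
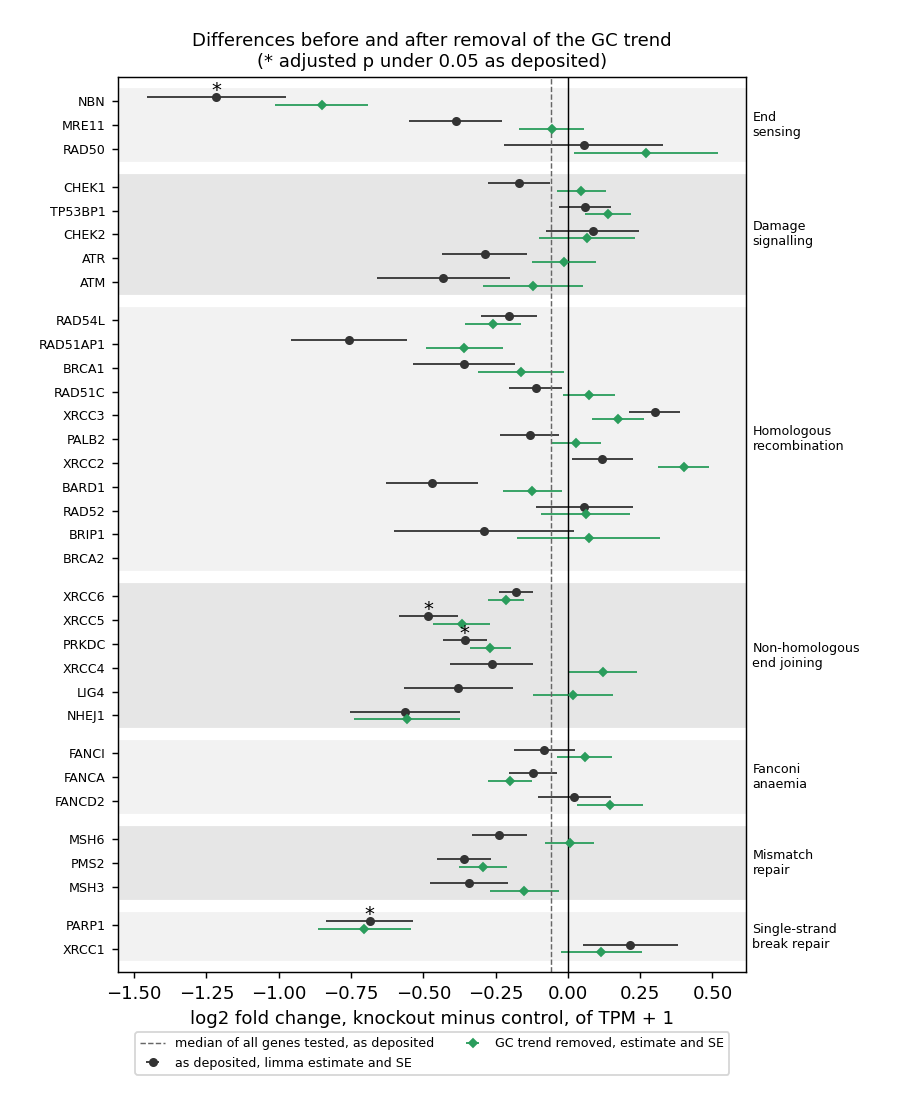
Log2 fold change of TPM + 1, knockout minus control, with its SE for the 32 members tested, as deposited (circles) and after removal of the GC trend (diamonds). Stars mark NBN, XRCC5, PRKDC and PARP1. Many of the diamonds lie nearer to 0 than the circles, for example MRE11 (-0.39 and -0.056), while those of NBN, PARP1 and NHEJ1 stay below -0.5.

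Transcript GC content was low in this set and moved with the differences. The median GC content of the longest transcript was 42.5% over the 32 members and 48.6% over 15613 genes with a value, and 20 members, or 62.5%, were under 45%, where 36.2% of all genes were. Over all genes, the median log2 fold change was -0.35 in the class under 40% GC and 0.10 in the class from 55% GC. The 9 members under 40% had a median of -0.39 and the 11 members from 40 to 45% had -0.17, where all genes of that class also had -0.17. In the class from 45 to 50% the 7 members had -0.36 and all genes had -0.02. That class holds PARP1, PRKDC, NHEJ1 and PMS2, with negative log2 fold changes, and CHEK2, TP53BP1 and RAD52, with values slightly above 0. Across the 32 members the log2 fold change and GC content had a Pearson's r of 0.50 and a Spearman's rho of 0.47, values that share the same 4 libraries. With the trend removed, 16 of the members were below 0 and 16 above. The 8 that turned from below to above 0 were CHEK1, PALB2, BRIP1, RAD51C, LIG4, XRCC4, FANCI and MSH6.

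**Figure D3:**
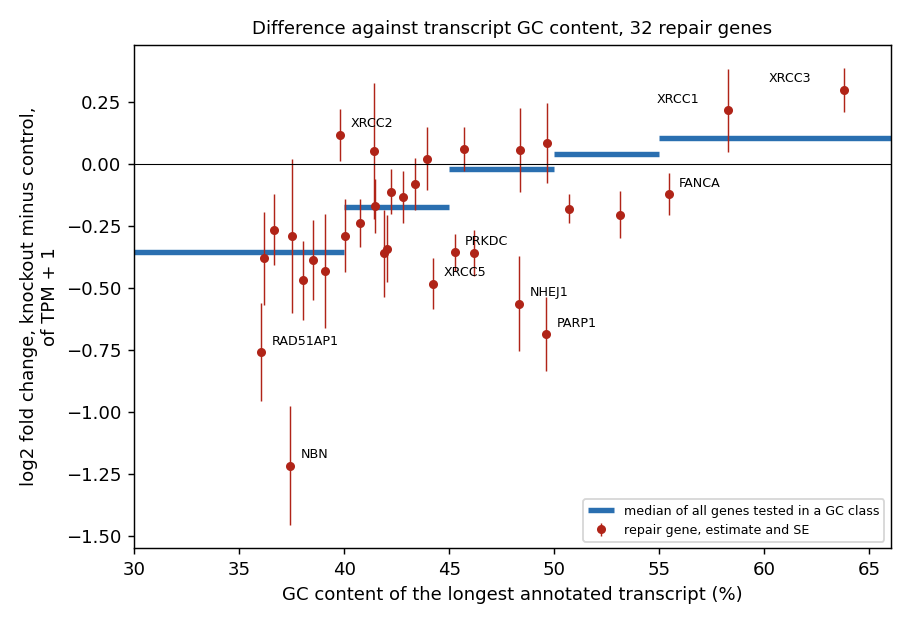
Log2 fold change with its SE against the GC content of the longest annotated transcript for the 32 members tested (points), with the median of all genes tested in each of 5 GC classes (horizontal lines; the outer classes continue beyond the axis). The lines climb from -0.35 to 0.10, and NBN, PARP1 and NHEJ1 are among those that lie below the line of their class by more than their SE.

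Many repair genes start back to back with another gene, and these neighbours were read beside them. For 17 members a protein-coding gene on the opposite strand, with an annotated start within 1000 bases, was read, and in 14 of those pairs both genes were tested. In 8 of the 14 both were below 0. Of the 14 neighbours, 11 were below 0, where 55.6% of all genes were, 0 fell and 1 rose (limma; 3 lower and 1 higher at an unadjusted p under 0.05), where 8.67% and 9.06% of all genes did. These pairs were looked at after the members' values were known. PRKDC and MCM4, a subunit of the replicative helicase, start 2 bases apart, and MCM4 had control values of 125 and 117 TPM and knockout values of 104 and 98.7 TPM (log2 fold change -0.26, SE 0.07, adjusted p = 0.073). LIG4 and ABHD13 start 11 bases apart, with log2 fold changes of -0.38 and -0.41. The starts of XRCC6 and DESI1 are 23 bases apart, and DESI1 rose from 42.9 ± 2.28 to 64.9 ± 9.33 TPM (SD, n = 2; limma adjusted p = 0.042), while XRCC6 was lower in both knockouts. Both are on chromosome 22, where the median of all genes was at 0.22.

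**Figure D4:**
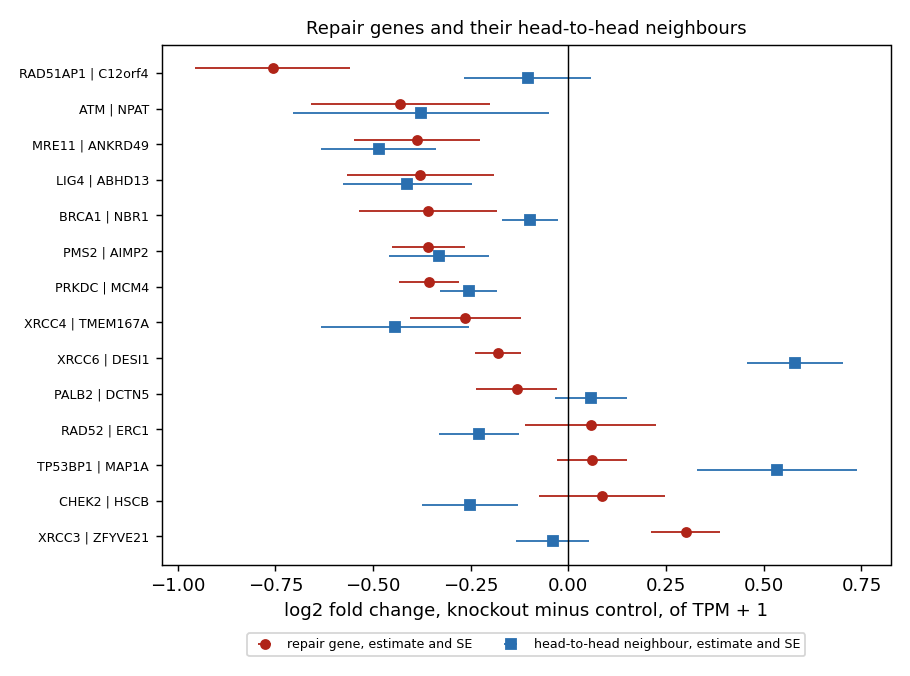
Log2 fold change of TPM + 1, knockout minus control, with its SE for 14 repair genes (circles) and their head-to-head neighbours (squares), ordered by the repair gene. The members of a pair lie close together for PRKDC with MCM4 and LIG4 with ABHD13, for example. They lie apart for XRCC6 with DESI1, RAD51AP1 with C12orf4 and TP53BP1 with MAP1A, among others.

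The letters bound by E2F factors, which drive S phase genes, were searched as TTTCGCGC, TTTGGCGC, TTTCCCGC and TTTGGCGG on both strands, from 250 bases before to 50 bases after each start. Windows were found for 29 members, 45 windows in all. At least 1 of these letter strings was in 11.1% of them, those of 5 members, and in 3.35% of 35116 windows of all genes. The members with a match were MSH3, MSH6, FANCD2, XRCC2 and XRCC6. The stretches of 4 of them are given to compare the matched letters and their surroundings, with the matched letters in capitals, read 5′ to 3′ on the strand of the gene.
MSH6: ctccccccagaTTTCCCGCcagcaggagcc
FANCD2: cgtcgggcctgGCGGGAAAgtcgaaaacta
XRCC2: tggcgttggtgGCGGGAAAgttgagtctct
XRCC6: gtcgcttccctGCGCCAAA
Each of these windows holds 1 match. The stretches of MSH6 (chr2:47783137-47783166), FANCD2 (chr3:10026424-10026453) and XRCC6 (chr22:41621326-41621344) are on the plus strand, and that of XRCC2 (chr7:152676102-152676131) is on the minus strand (RefSeq, GRCh38.p14). The 5 members had log2 fold changes from -0.34 for MSH3 to 0.12 for XRCC2, and a match is only a description of letters. The CHR letters TTTGAA and TTCGAA were in 6.67% of the members' windows and in 16.4% of all windows, and CCAAT was in 53.3% and 34.6%.

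Other genes of the same pathways were called in both directions. Of 121 tested genes in 7 lists of other repair factors, 11 fell and 6 rose, beside 8.67% and 9.06% of all genes, with a median log2 fold change of -0.15. Among 24 other recombination genes RBBP8, which starts resection with MRE11, fell (log2 fold change -0.53), and RMI2 (0.50), SWI5 (0.76) and EME1 (0.38) rose. The signalling list had the most falls, 6 of 26 and 0 rises, with a median of -0.31. There SHLD2, of the complex that acts below TP53BP1, fell from 31.4 ± 5.16 to 14.9 ± 1.44 TPM, and the histone gene H2AX fell from 410 ± 10.3 to 286 ± 22.2 TPM (SD, n = 2; limma adjusted p = 0.022 and 0.023). HUS1 of the clamp that activates ATR (-0.74) and BRCC3, of a BRCA1 complex (-0.69), also fell.

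In the remaining lists few genes were called, where 8.67% of all genes fell and 9.06% rose. FANCL, the ligase of the Fanconi pathway, was the only call among 14 tested genes of its list (log2 fold change -0.75, adjusted p = 0.049). The count called lower in that list was 0 in 12 of 16 alternatives. It reached 4 with a filter of at least 5 TPM in 2 libraries, where 14.6% of all genes were lower. No gene passed among 11 end joining and 11 mismatch repair genes (limma; 3 and 1 were lower and 0 and 1 higher at an unadjusted p under 0.05), where LIG1 (-0.55, adjusted p = 0.055) and PCNA (-0.47, adjusted p = 0.056) came nearest. Of 17 base excision genes, APEX1 fell (-0.40) and PARP3 rose (0.62). Of 18 nucleotide excision genes, XPC (-0.59) and GTF2H1 (-0.42) fell and the damage sensor DDB2 (0.62) and ERCC1 (0.57) rose. With either control left out 0 of these genes passed (limma), while 11 and 18 were lower and 6 and 5 higher at an unadjusted p under 0.05.

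The lists of S phase and proliferation genes also had medians below 0. Of 20 S phase genes 6 fell, among them UHRF1, MCM6 and TYMS, and 0 rose (limma), where 8.67% and 9.06% of all genes did. The median of the list was -0.30, and its summed level was 2525 to 2551 TPM in the controls and 2022 to 2140 TPM in the knockouts. Of 14 tested proliferation markers only CCNA2 was called, as lower, which is 7.14% of them, where 8.67% of all genes were. Of these markers 8 were lower and 0 higher at an unadjusted p under 0.05 (limma), where 21.4% and 16.9% of all genes were. For 10 of the 14 both knockouts lay below both controls, where 39.0% of all genes did so. The median of the markers was -0.27, and the sum of the 15 listed was 1908 to 1936 TPM in the controls and 1520.5 to 1718 TPM in the knockouts. The part of cell division in the levels of the repair genes was not tested. Both sums were lowest in knockout 2, and so were most of the members.

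The knockouts differed from each other across these genes. Knockout 2 was below knockout 1 in 29 of the 33 members, or 87.9%, where it was below in 49.5% of all genes tested. The exceptions were RAD51C, RAD52, PMS2 and XRCC1. The median difference of knockout 2 minus knockout 1 was -0.15 on the log2(TPM + 1) scale for the members and 0.0017 for all genes. This difference also followed GC content over all genes, with a median of -0.16 under 40% GC, where knockout 2 was below in 73.1% of genes, and 0.088 from 55% GC. The 9 members under 40% had a median of -0.38, and the 11 from 40 to 45% had -0.23, where all genes of that class had -0.054. The part of GC content in the members' difference was not tested. Between the controls, control 2 was below control 1 in 23 of 33 members and in 63.0% of all genes. In knockout 2 the level was 62.6% of the control mean for BARD1, 66.2% for BRCA1 and 47.4% for RAD51AP1, against 77.9%, 89.0% and 69.9% in knockout 1.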

How the data were processed

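RNA-seq of 4 libraries was analysed, 2 controls and 2 DEK knockouts, grouped by title. The authors deposited 1 table of TPM, in which each column sums to 1000000. The submitters' processing notes list hg38 and, with no roles, featureCounts 2.0.1, STAR 2.7.8a, DESeq2 1.36.0 and cutadapt 1.18. Which annotation, gene lengths and strand setting were used is not given in the sources used here. TPM is relative within a library, and it holds no counts. Depth was estimated from value steps and GENCODE 29 exon lengths; 46.3 to 50.3% of estimates under 200 reads were whole within 0.02.

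Genes with at least 1 TPM in 2 libraries (15815) were fitted as log2(TPM + 1) with limma 3.58.1 (R 4.3.3), with a single group term and a prior on the variance that follows the mean level, adjusted by Benjamini-Hochberg at 0.05. The log2(TPM + 1) scale understates changes of low genes. A fold is the ratio of group means. Exact permutation of 2 against 2 libraries gives at best p = 0.333 and was left out. The GC trend was removed with a lowess (span 0.3) of each library's deviations from the gene means on the GC content of the longest GENCODE 29 transcript. The fit was tested on simulated data.

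The members and lists were chosen with earlier results of these data known. All members are named; of other lists, genes past the threshold (up to 4 per direction by p), or the 1 with the smallest p. KLC1, LRRC41, TUBGCP4, ZNF276, FBXO11, the PMS2 pseudogenes, the head-to-head neighbours and the E2F stretches were chosen after their values were seen. Alternatives covered pseudocount, filter, scaling, variance prior, replicate block, threshold, GC, chromosomes and leaving out each library. The result of 1 other gene is not reported here.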

Additional observations from a re-analysis of the deposited data

How the results depend on the processing

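Without control 1 or control 2 no gene passed, while without knockout 1 or knockout 2, 2846 and 1328 genes were lower. The log2 fold changes of NBN, XRCC5, PRKDC and PARP1 were negative under every alternative fitted to them. The share of all genes called lower was 8.67%, and it also changed with the setting. It was 7.44% with the GC trend removed, 6.04% with median-ratio scaling and 3.61% with no variance trend. With a 5 TPM filter it was 14.6% of 10966 genes, and with quantile normalization 7.45%. With no filter it was 0 of 31270 genes, and at an adjusted p under 0.01 (limma) 10 of 15815. The counts below are to be read beside these shares. The count of members called lower, 4, became 1 with the GC trend removed, 1 with median-ratio scaling, 0 with no filter (8 at an unadjusted p under 0.05 by limma), 0 with no variance trend (9 unadjusted) and 0 at an adjusted p under 0.01, and it ranged from 0 to 10 with 1 library left out. The count higher, 0, became 1 with the GC trend removed and 1 with quantile normalization, and ranged from 0 to 1 with 1 library left out. The 11 other repair genes lower became 20 with a 5 TPM filter, 0 with no filter, 3 with no variance trend, 7 with quantile normalization and 0 at an adjusted p under 0.01 (0 to 29 with 1 library left out). The 6 higher became 0 with no filter, 3 with no variance trend and 0 at an adjusted p under 0.01 (0 to 13). DEK was at -1.89 with no filter (adjusted p = 0.096) and with no variance trend (adjusted p = 0.056), and between -2.37 and -1.41 with 1 library left out.

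With the replicate number as a block, 4 members were lower (PRKDC was replaced by RAD51AP1), 17 other repair genes were lower, and 1548 genes in all fell and 1423 rose. Same-numbered libraries share only a number (correlation of deviations 0.099), so the block was not used.

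With the GC trend removed the median log2 fold change was -0.0039 over all members, -0.056 for end sensing, 0.046 for damage signalling, 0.045 for homologous recombination, -0.24 for end joining, 0.059 for Fanconi anaemia, -0.15 for mismatch repair and -0.29 for single-strand breaks. That of end sensing was -0.802 with a 5 TPM filter, where RAD50 dropped out. That of mismatch repair was -0.24 centred on chromosomes, -0.29 with median-ratio scaling, -0.37 with either other pseudocount and -0.28 with quantile normalization. It was -0.29 without chromosomes 1, 7 and 22, where PMS2 dropped out. That of single-strand breaks was -0.16 centred on chromosomes, -0.17 with median-ratio scaling and 0.22 without those chromosomes, where XRCC1 alone remains. With 1 library left out the ranges were -0.30 to -0.15 (all members), -0.56 to -0.21 (end sensing), -0.25 to -0.091 (signalling), -0.22 to -0.13 (recombination), -0.49 to -0.28 (end joining), -0.13 to 0.031 (Fanconi anaemia), -0.33 to -0.31 (mismatch repair) and -0.26 to -0.21 (single-strand breaks). Apart from the members that dropped out, the causes of these changes were not tested.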
